A study of Caenorhabditis elegans with 2 samples.

Results

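The genes described here encode the initiation and elongation factors of translation in Caenorhabditis elegans, taken as the 39 protein-coding genes of 19973 in the WBcel235 annotation whose names begin with eif-, eef-, iff-, ife- or inf-. Of these genes 20 met at least 1 deposited interval at their 3′ end, and 21 of the 4818 rows of the interval list were involved. A row was taken when it covered at least 10 nt of the stop codon and 3′ untranslated region (3′ UTR) of a gene, or when its 5′ edge was no more than 60 nt ahead of the last stop codon base. Membership goes by name alone. All material came from N2 wildtype worms, the laboratory reference strain, grown as mixed stages on plates seeded with OP50 bacteria, so the list mixes all developmental stages and tissues. First-strand cDNA was primed with oligo-dT, each transcript was amplified with its own forward primer and cloned, and the inserts of 6432 minipools (the pooled bacteria of 1 cloning reaction each) were read by pyrosequencing. There is 1 list and no replicate, the list holds positions without read counts, and the depth behind each interval is unknown. No test between groups was possible, and brackets after shares give exact Clopper-Pearson 95% intervals, which cover counting error only.

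Translation starts when initiation factors bring the small ribosomal subunit, the initiator tRNA and a capped messenger RNA together. The factor eIF2 carries the initiator tRNA and is recharged by eIF2B, eIF4E binds the cap, the helicase eIF4A opens structure in the leader, and eIF3, a large complex of many subunits, holds the assembly together. Elongation then runs on eEF1A, which delivers charged tRNAs and is recharged by the eEF1B complex, and on eEF2, which moves the ribosome along. In vertebrates the messenger RNAs of elongation factors and ribosomal proteins are abundant and are controlled together, and worms have several eIF4E genes with partly separate uses in germline and soma.

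The file names no gene and no strand, and its numbering drifts away from that of the annotation along the chromosomes. A shift was therefore measured in each of 103 windows of 1 Mb and added to the file's positions. At the 20 genes it lay between -1 and 119 nt. It differed there by a median of 2 nt, and by at most 12 nt, from a shift measured on the nearest 30 intervals. This difference is taken below as the precision of the distances. The second shift started from the first and used the same stop codons, so an error common to both would not show. After correction the 5′ edges that lay near a stop codon began a median of 32 nt before its end. The value is the same on both strands because the shift was set to make it so, and it is no check of the correction. Coordinates below follow the numbering of the file (genome build not given in the sources used here).

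Translation factor genes had a 3′ interval in 51.3% of cases (34.8 to 67.6, 20 of 39), against 21.2% of all protein-coding genes (20.6 to 21.8, 4230 of 19973). Ribosomal protein genes had one in 64.2% (52.8 to 74.6, 52 of 81) and genes of tRNA synthetases in 45.2% (27.3 to 64, 14 of 31). A product needed a forward primer, and which genes were given one was not known here. These shares therefore depend on which genes were targeted as well as on cloning, and are no measure of abundance. Of the initiation genes (eif-, ife- and inf- by name, eif-4A3 among them) 15 of 31 had an interval and of the eef- genes 5 of 6, and neither of the iff- genes, iff-1 and iff-2, which encode eIF5A, had one. The genes with an interval were spread over all 6 chromosomes, with 6 of 12 members on chromosome I, 6 of 11 on II, 3 of 7 on III, 1 of 2 on IV, 2 of 4 on V and 2 of 3 on X.

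**Figure D1:**
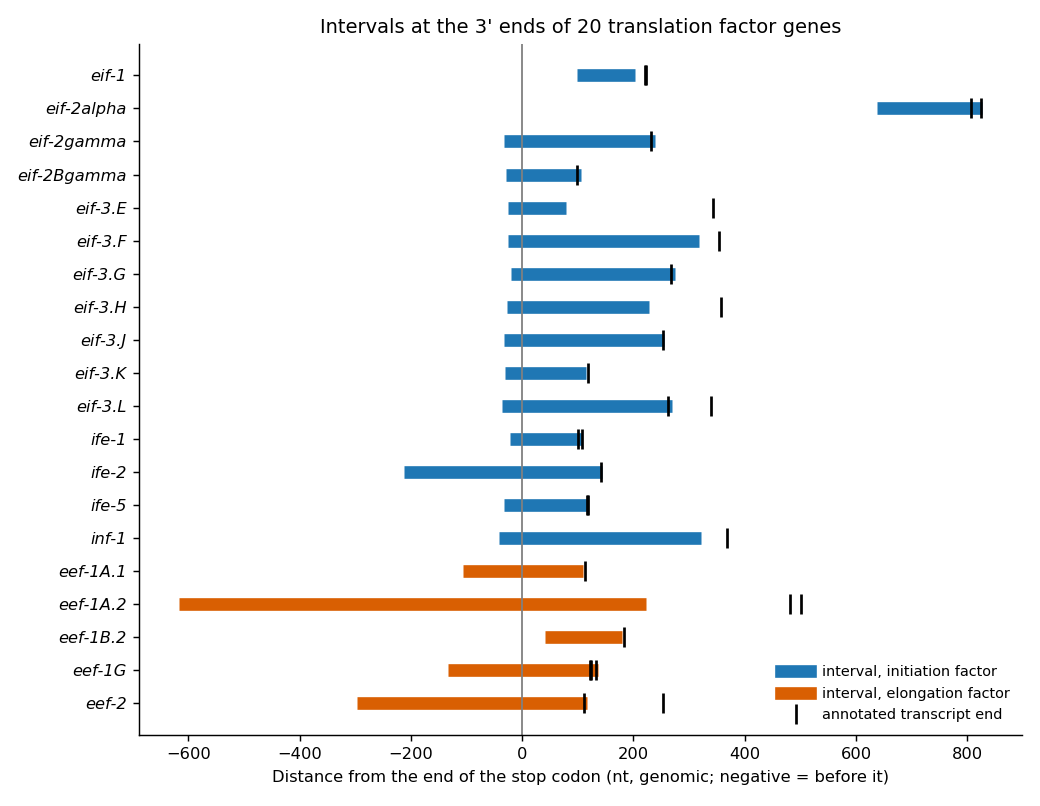
Each bar is the deposited interval of a translation factor gene, placed by its distance in nt from the end of the stop codon (grey line), and black ticks are annotated transcript ends of models with that stop codon. Initiation factor bars mostly start just left of the line, while the elongation factor bars start at other places, from 616 nt before it (eef-1A.2) to 41 nt after it (eef-1B.2).

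The genes of initiation and of elongation differed in where their intervals started. In 12 of 15 initiation genes (80%, 51.9 to 95.7) the 5′ edge fell within the 60 nt ahead of the last stop codon base, where the products of most genes in the file began (77.6%, 3281 of 4230). In the 5 elongation genes this was the case in 0 (upper limit 52.2%). Their intervals covered the stop codon but started farther upstream in 4, and started after the stop codon in 1. One of the 4, that of eef-1A.1, also met a gene on the opposite strand and cannot be assigned, which leaves 3 of 4 elongation genes with an upstream start. Over all genes with an interval these places held 10.3% and 12.1%. Ribosomal protein genes had intervals that started farther upstream in 48 of 52, and only 4 started near the stop codon (7.69%, 2.14 to 18.5), whereas all 14 tRNA synthetase intervals started near it (76.8 to 100). The difference between initiation and elongation genes was seen in the data, rests on 5 elongation genes and was not tested. The shift of each window was chosen to place most 5′ edges 10 to 60 nt ahead of a stop codon. All shares of starts near the stop codon depend on that choice, and they are no check of the shift.

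**Figure D2:**
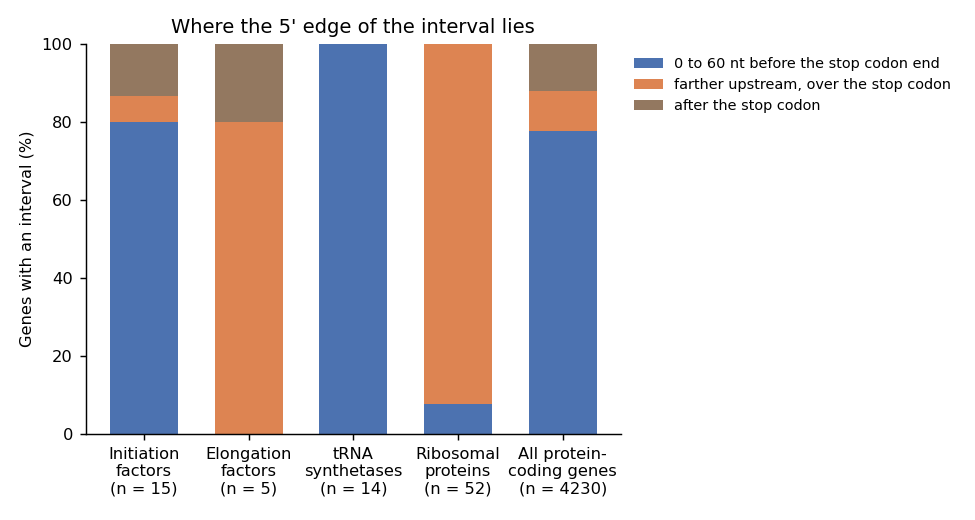
Bars give the percentage of genes with an interval whose 5′ edge lay 0 to 60 nt ahead of the last stop codon base, farther upstream but over the stop codon, or after it, for initiation factors, elongation factors, tRNA synthetases, ribosomal proteins and all protein-coding genes, with the number of genes below each bar. None of the 5 elongation factor intervals and 4 of the 52 ribosomal protein intervals started near the stop codon, against 3281 of 4230 over all genes.

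Of the eEF1A genes, eef-1A.2 had the longest interval of the whole file, 839 nt (X, 7824596 to 7825434), and the next longest row measured 824 nt. It began 616 nt ahead of the last stop codon base, spanned the whole last coding intron of 49 nt and ended 222 nt after the stop codon. Each row gives only a start and an end, so whether intron sequence was read cannot be told. Among the 20 genes eef-1A.2 was the only one whose interval spanned a whole intron, which 2.13% of all genes with an interval showed. That of eef-1A.1, the gene of the ubiquitous eEF1A, measured 218 nt (III, 6969973 to 6970190), from 107 nt ahead of the last stop codon base to 110 nt after it. The 2 intervals differed in how far they reached on either side of the stop codon. The interval of eef-1A.1 also covered the 3′ end of F31E3.12 on the opposite strand, as 22.7% of genes with an interval shared theirs with another gene, and without a strand in the file it cannot be assigned to either. The coding sequences of both eEF1A genes are closely alike, and the sources used here do not say how reads that match both were placed, which leaves the upstream part of each uncertain.

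The remaining elongation genes encode eEF2 and subunits of the eEF1B exchange complex. The eef-2 interval measured 413 nt (I, 9166393 to 9166805), longer than 93.6% of those of all genes, and had 116 nt after the stop codon. It began 296 nt ahead of the last stop codon base, 8 nt inside the exon that holds the stop codon. For eef-1G, the gene of the gamma subunit, 271 nt were listed (V, 10967626 to 10967896), starting 133 nt ahead of the last stop codon base and ending 137 nt after it. This edge lay 1 nt inside the start of its last exon. A start close to the exon edge was also seen in ife-2 among the initiation genes, where the edge lay -6 nt from the start of the last exon. In eef-2, eef-1G and ife-2 the interval thus began within 10 nt of the edge of the exon that holds the stop codon. The window and nearest-30 shifts there were 9 and 7 nt (eef-2), 31 and 25 nt (eef-1G), and -1 and -1 nt (ife-2). The offsets of eef-2 and ife-2 are larger than the difference of these shifts. Of the 437 genes whose interval started farther upstream, 30% (131) had the 5′ edge within 10 nt of the start of the exon holding the stop codon, and of the 48 such ribosomal protein genes 24 did. Of the 20 translation factor genes 3 had at least 1 intron base in the interval, against 6.97% of all genes with an interval. These were eef-1A.2, ife-2 with 6 nt at the 5′ edge and eef-2 with 3 nt at the other end, in an intron that 1 model places in the 3′ UTR. In eef-1B.2 (IV, 15039375 to 15039513) the interval of 139 nt started 41 nt past the more distal of its annotated stop codons, with its end 179 nt past it. The other eEF1B gene, eef-1B.1, with an annotated 3′ UTR of 82 nt, had no interval.

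Subunits of eIF3 made up the largest group. Of 11 eif-3 genes 7 had an interval (63.6%, 30.8 to 89.1), and in all 7 it began near the stop codon, between 20 and 36 nt before its end. The sequence after the stop codon measured 317 nt in eif-3.F (II, 9333508 to 9333851), 275 nt in eif-3.G (II, 8443815 to 8444110) and 270 nt in eif-3.L (II, 5619625 to 5619931). It measured 255 nt in eif-3.J (I, 13437668 to 13437955) and 228 nt in eif-3.H (I, 4446226 to 4446481). These 5 lengths lay above the median of 148 nt over all 3718 genes whose interval covered the stop codon, whose interquartile range was 100 to 229 nt. The other two lay below the median, with 115 nt in eif-3.K (V, 12955060 to 12955206) and 78 nt in eif-3.E (I, 10640717 to 10640820). The median of the 7 was 255 nt. The eif-3.K interval also covered the 3′ end of mpst-7 on the opposite strand, but only eif-3.K had its stop codon near the edge. eif-3.H was the only translation factor gene met by more than 1 row, against 2.01% of all genes with an interval. Its further row of 104 nt (I, 4446586 to 4446689) began 333 nt after the stop codon and covered 25 nt of the eif-3.H 3′ UTR. The stop codon of cps-6 on the opposite strand lay near its other edge, and it cannot be counted as a further end of eif-3.H.

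**Figure D3:**
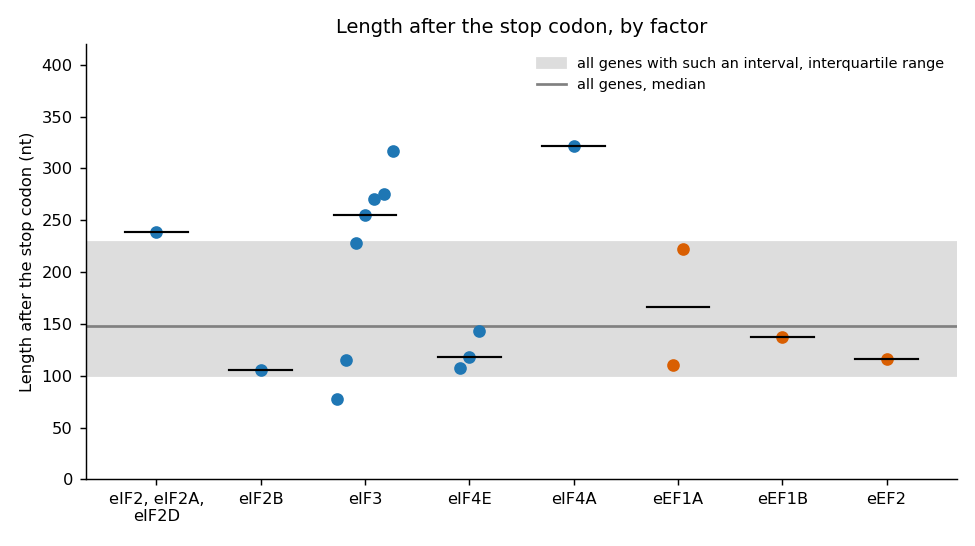
Points give how far in nt the interval reached past the stop codon for the 17 translation factor genes whose interval covered the stop codon (blue, initiation; orange, elongation), black lines give the median of each factor, and grey shows the median and interquartile range over all 3718 such genes. Of 7 eIF3 points 5 lie between 228 and 317 nt, while the 3 eIF4E points lie between 107 and 143 nt.

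Of the 5 genes of the eIF4E family, whose products bind the cap, 3 had an interval. The sequence after the stop codon measured 107 nt in ife-1 (III, 13344369 to 13344498), 118 nt in ife-5 (II, 12283901 to 12284051) and 143 nt in ife-2 (X, 381385 to 381741), and all 3 lengths lay below the median of all genes but inside its interquartile range. That of ife-2 was close to the median of 148 nt. It was below it by less than 12 nt, the largest difference between the window and nearest-30 shifts, but at ife-2 both were -1 nt. ife-1, the gene of an eIF4E form with a role in sperm formation, and its close relative ife-5 had intervals that began 22 and 32 nt ahead of the last stop codon base. That of ife-2, an eIF4E gene used mainly in the soma, began 213 nt before it. ife-3, with an annotated 3′ UTR of 352 nt, and ife-4, with 209 nt, had no interval. The ife-1 and ife-5 sequences are related, and reads matching both could have been placed on either.

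inf-1, which encodes eIF4A, had the longest sequence after the stop codon of the 17 translation factor genes whose interval covered it, 322 nt (III, 6931487 to 6931851), above 90% of all such genes. Of the subunits of eIF2, eif-2gamma, the GTP-binding one, had 239 nt (I, 2315728 to 2315999) from an edge 32 nt ahead of the last stop codon base. eif-2alpha, the subunit whose phosphorylation lowers initiation under stress, was met only far from its stop codon. Its interval of 191 nt (I, 2076737 to 2076927) began 637 nt past the stop codon, with its end 827 nt past it, at the end of an annotated 3′ UTR of 825 nt. An annotated alternative model splices this 3′ UTR and ends 806 nt (genomic) after the stop codon. Of the 5 genes of eIF2B only eif-2Bgamma had an interval, with 106 nt after the stop codon (II, 6965741 to 6965876). eif-1, which helps to find the start codon, was met by an interval of 104 nt (II, 4990840 to 4990943) that began 99 nt past the stop codon, with its end 202 nt past it. With eif-2alpha and eef-1B.2 it forms the 3 genes whose stop codon was not covered.

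Over the 17 genes whose interval covered the stop codon, the median length after it was 143 nt, the quartiles were 115 and 255 nt, and values spanned 78 to 322 nt. All genes had 148 nt. The 17 include eef-1A.1, whose interval cannot be assigned. With only intervals given to 1 gene, the median over translation factor genes was 182.5 nt, while the 148 nt of all genes includes shared intervals. The 13 initiation genes had a median of 228 nt and the 4 elongation genes, eef-1A.1 among them, of 126.5 nt. Among genes with a start near the stop codon, the 12 translation factor genes had 233.5 nt, against 156 nt in all such genes. With the same start, the 4 ribosomal protein genes had 86 nt and the 14 tRNA synthetase genes 173.5 nt. PCR and cloning favour short products and overlapping forms are not listed apart, so these are lengths of the listed intervals and not of the most used forms.

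The 3′ ends were then set against annotated transcript ends. Of the 20 genes 15 ended within 20 nt of one (75%, 50.9 to 91.3), against 56.1% of all genes with an interval. Where the interval was given to 1 gene alone, these were 14 of 19, against 63.3% of all such genes. In 14 of the 20 the difference was at most 8 nt, and in 5 it was at most 2 nt, with 0 nt in ife-5, 1 nt in both eif-3.J and ife-2, -1 nt in ife-1 and 2 nt in eif-2alpha. The median difference was -0.5 nt. Differences this small are below 12 nt, the largest difference between the window and nearest-30 shifts at these genes. The sources used here do not say whether these clones contributed to the annotation.

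The ends that lay apart from the annotation all lay upstream of it. They numbered 5 of 20, against 20.7% of all genes with an interval and 23.8% of those whose interval was given to 1 gene alone. The eif-3.E interval stopped at -265 nt relative to the annotated end, in a 3′ UTR annotated at 343 nt. It measured only 104 nt, near the shortest length in the file, 96 nt. In eef-1A.2 the difference was -260 nt, where the models end 482 and 502 nt after the stop codon and none ends near 222 nt. eif-3.H ended at -129 nt, inf-1 at -46 nt and eif-3.F at -37 nt. No translation factor gene ended more than 20 nt downstream of an annotated end (0 of 20, upper limit 16.8%), against 23.2% of all genes with an interval and 13% of those whose interval was given to 1 gene alone. Oligo-dT can anneal to A-rich stretches within a messenger, and whether any of these 5 ends is an internal start was not tested.

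The annotation itself gave long 3′ UTRs to the initiation genes. The longest annotated 3′ UTR of each had a median of 267 nt over 31 initiation genes and of 125 nt over 6 elongation genes, against 131 nt over the 16794 genes that have one. Of the 11 eif-3 genes 9 lay above that median, with a median of 312 nt and a range of 94 nt (eif-3.D) to 392 nt (eif-3.B). Translation factor genes with an interval had a median annotated 3′ UTR of 227.5 nt and those without had 273 nt, whereas over all genes those with an interval had 172 nt and those without 117 nt. Of the 39 genes 5 had more than 1 annotated end, against 6.49% of all genes.

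**Figure D4:**
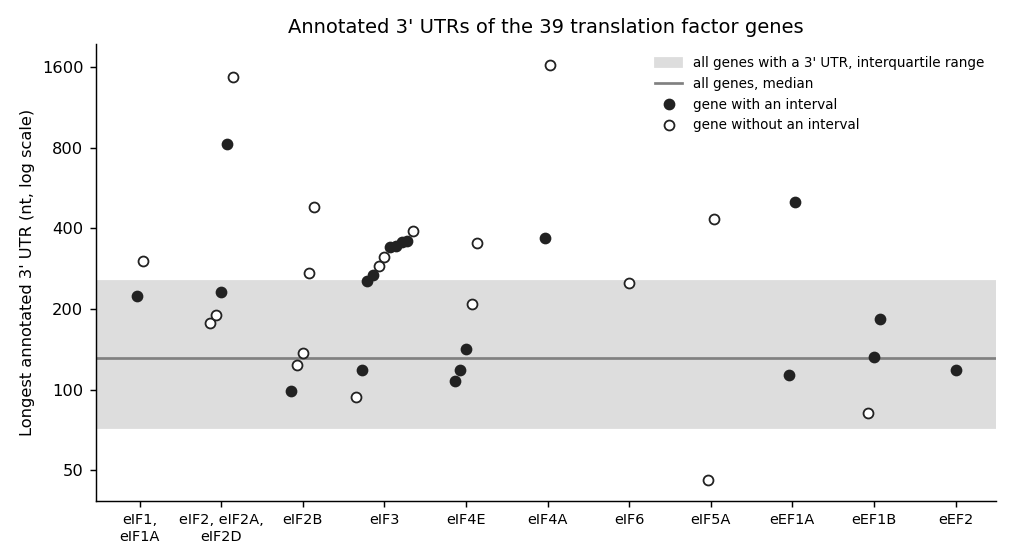
Points give the longest annotated 3′ UTR of each of the 39 translation factor genes in nt on a log scale, grouped by factor, filled for genes with an interval and open for those without, and grey shows the median and interquartile range of all genes with a 3′ UTR. The lowest point is iff-1 at 46 nt and the highest eif-4A3 at 1629 nt, both without an interval.

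The 19 genes without an interval came from nearly every factor. For iff-1, the eIF5A gene of the germline, the longest annotated 3′ UTR was 46 nt. A product from the usual start, 32 nt ahead of the last stop codon base, needs 64 nt to reach the shortest length in the file, 96 nt. Of the 19 genes only iff-1 lay under 64 nt. Most ribosomal protein intervals started farther upstream, and those genes with an interval had a median annotated 3′ UTR of 54 nt. Whether length bears on the missing iff-1 interval was not tested. iff-2, the eIF5A gene of the soma, had 433 nt. The eIF3 genes without an interval were eif-3.B, eif-3.C with 312 nt, eif-3.D and eif-3.I with 288 nt. Of eIF2B, eif-2Balpha had 123 nt, eif-2Bbeta 137 nt, eif-2Bepsilon 273 nt and eif-2Bdelta 478 nt. Of further genes that act on the initiator tRNA, eif-2beta had 189 nt, eif-2D 177 nt and eif-2A 1472 nt. eif-1.A, which works beside eIF1 in scanning, had 303 nt, and eif-6, which keeps the ribosomal subunits apart, had 250 nt. eif-4A3, whose helicase belongs to the exon junction complex of spliced messengers, had the longest, 1629 nt, which exceeds the longest interval of the file. A missing interval does not show that a gene was not expressed, since a primer, a product and a clone were all needed.

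The next gene downstream was often close and on the same strand. It began within 300 nt in 18 of the 39 translation factor genes (46.2%, 30.1 to 62.8), against 12.5% of all protein-coding genes. Neighbours that overlapped the gene were not counted in any group, such as gale-1 at eif-6 (-34 nt). Of the 11 eif-3 genes 8 had such a neighbour, with a gap of 43 nt between eif-3.F and scp-1, 94 nt between eif-3.J and spr-5, and 131 nt between eif-3.G and evl-20. The gap was 231 nt between eif-3.E and cdc-26 and 264 nt between eif-3.L and dhs-6. inf-1 lay 47 nt before byn-1 and eif-2Bgamma 126 nt before tra-2. In this worm close genes on the same strand are often transcribed together as operons, but the annotation used here marks none. Such neighbours were also frequent for ribosomal protein genes (37.0%, 30 of 81) and tRNA synthetase genes (32.3%, 10 of 31). None of the 5 eIF4E genes had one, though acaa-2 lay 318 nt after ife-1, just past the limit.

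Further genes of the translation pathway were looked up by name. Of 26 that the annotation holds, 8 had an interval (30.8%, 14.3 to 51.8). The share over all protein-coding genes, 21.2%, lies inside that range. In 7 of these 8 it started near the stop codon, against 77.6% of all genes with an interval, and 1 of the 7, mrrf-1, cannot be assigned. The 3 with a role in elongation, dhps-1, efk-1 and tufm-1, all started near the stop codon, unlike the 5 eef- genes. dhps-1, which encodes the enzyme that begins the modification of eIF5A, had 105 nt after the stop codon (II, 11997787 to 11997925) and ended -2 nt from the annotated end. efk-1, the gene of the kinase that inhibits eEF2, had the short interval of 103 nt (III, 6165165 to 6165267), with 68 nt after the stop codon and an end -315 nt from the annotated one. tufm-1, a mitochondrial EF-Tu gene, had 242 nt (III, 2812066 to 2812335), 63 nt past the annotated end. gcn-1, a partner of the eIF2alpha kinase GCN-2, had 187 nt (III, 2197653 to 2197867) and ended at -27 nt.

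Of the remaining 4, pab-2, a gene of a poly(A)-binding protein, had 200 nt after the stop codon (X, 13522928 to 13523174), with an end -731 nt from the annotated one. daf-15, which encodes the Raptor subunit of the TOR complex, had 405 nt (IV, 9394486 to 9394916) and ended 5 nt past the annotated end. rsks-1, the S6 kinase gene, was met by an interval of 203 nt inside its annotated 3′ UTR of 1206 nt (III, 11251033 to 11251235). The interval of mrrf-1, a mitochondrial ribosome recycling factor gene (I, 3909481 to 3909718), had the stop codon of pbs-4 on the opposite strand near its other edge and cannot be assigned. Of the 8 genes, mrrf-1 among them, 2 ended within 20 nt of an annotated end (25%, 3.19 to 65.1). The share was 56.1% over all genes with an interval, which lies inside that range, and 15 of 20 in the translation factor genes above.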

How the data were processed

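The authors deposited 1 list of genomic intervals from pyrosequencing of cloned 3′ RACE products, recorded for the minipool run. Aligner, read assembly, filters and build: not given in the sources used here. Start and end were read as positions (converted to count from 1). The deposited score is 0 throughout and the strand a plus sign throughout, and neither was used. The second sample of the series, a run of 49152 barcoded products and 5952 minipools, was not analysed here. Whether its reads also entered the list is not stated in the sources used here.

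Names came from Ensembl release 115 (WBcel235). In each 1 Mb window, positions were scanned over 6000 nt either way for the shift that put most 5′ edges 10 to 60 nt ahead of the last base of a stop codon, then refined to the point where the median distance (up to 120 nt) was equal on both strands. At least 3 edges per strand were required, and 5 windows took the shift of the nearest window. An interval that met 2 genes counted for both, unless said otherwise. For each gene with several rows, the row near the stop codon was used. Annotated ends at most 20 nt apart were joined. Alternatives changed the window, the shift, the overlap, the edge limit and the distance between ends. Functions were tested on simulated data. Python 3.11.15, numpy 2.4.6, pandas 2.3.3 and scipy 1.17.1 were used. Every translation factor gene is named, as is each gene of the pathway lists with an interval, and lists of ribosomal protein and tRNA synthetase genes are given as counts. Genes and lists were chosen with earlier results of these data known.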

Additional observations from a re-analysis of the deposited data

How the results depend on the processing

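The 4 results recomputed were the number of translation factor genes with an interval (20), the number whose interval started near the stop codon (12), the number that ended within 20 nt of an annotated end (15) and the median length after the stop codon (143 nt). When only windows with a shift of at most 5 nt were used, 4 genes had an interval, 2 started near the stop codon and 3 ended within 20 nt, since most translation factor genes lie outside those windows. Under the other settings the numbers stayed between 19 and 20, 11 and 12, and 13 and 16, and the median stayed between 137 and 233.5 nt over all settings. The highest median came from intervals that start near the stop codon. That setting, the shift of the nearest 30 intervals, the limit to intervals given to 1 gene and the count of starts near the stop codon were chosen after seeing the data. No paired analysis was possible because a single list was analysed. The list gives no read count, so the support of an interval is unknown, and forms of different length that share a start cannot be told apart in it.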

Other observations

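Of the rows that touched a translation factor gene without meeting its 3′ end, 1 lay in ife-1 (III, 13343961 to 13344096). Its 136 nt were coding along the whole length and ran from 430 to 295 nt ahead of the last stop codon base. Another, of 133 nt, lay over eif-1 (II, 4991467 to 4991599), between 557 and 425 nt ahead of its last stop codon base, and met the 3′ end of pigb-1, the neighbour upstream on the same strand.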
